A study of Mus musculus with 4 samples.

Results

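The scattered non-SMC-only distal regions are stretches of open chromatin that carried a peak in each non-SMC line but none in the SMC lines, lay far from promoters and did not crowd together. They were chosen from the ATAC-seq peak lists of 4 mouse cell lines, in which peaks mark places where a transposase can cut the DNA. Peaks on chromosomes 1 to 19 and X were merged into 357556 regions wherever they shared at least 1 base, and 26224 of them were found in the 2 non-SMC lists alone. A region was distal when its midpoint lay more than 3 kb from the transcription start site (TSS) of every protein-coding gene. Of 321756 distal regions, 24239 were non-SMC-only (7.53%), against 14128 that were SMC-only (4.39%). The genome was then cut into fixed bins of 100 kb, and the 19397 non-SMC-only distal regions in bins that held at most 4 of them were kept as scattered (6.03% of all distal regions). The other 4842 lay in bins with 5 or more and are called dense. Peak calls in all 4 libraries chose the regions, so their presence in non-SMC and absence in SMC is a description and no test was made on it.

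The lines came from lung tumors of *Rb1*L/L, *Trp53*L/L mice (*RP*), a model of small cell lung cancer (SCLC) in which both tumor suppressor genes are deleted, on a mixed C57Bl/6, Balb-c and S129 background. SMC are the NCAM-hi CD44-lo/- cells and non-SMC the NCAM-lo CD44-hi cells, separated by flow cytometry, grown untreated in RPMI1640 with 10% serum and represented by 2 lines each. Every line gave 1 library, so the 2 lines are the only replicates of a type. All 4 lines carry these alleles, and none stands for normal lung. At the loci of the defining markers, the promoter of *Cd44* had a peak at the 94.4th percentile of fold enrichment in the list of non-SMC line 1 and the 98.4th in line 2, none in SMC line 1 and one at the 43.1st percentile in SMC line 2. The promoter of the neuroendocrine gene *Chga* had peaks in the SMC lines alone. The promoter of *Ncam1* had peaks in all 4 lines. The lists held between 91118 and 154039 peaks, and the read background recovered from them was 0.456 reads for SMC line 1 and 1.54 for SMC line 2, against 1.49 for the first non-SMC line and 0.639 for the second. SMC line 1 and non-SMC line 2 were thus the shallower libraries, and a region without a peak there may lie below what their depth could show. The part of depth in the selection was not tested.

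Distal open regions are often enhancers, stretches that are bound by transcription factors and act on genes that may be far away. AP-1 is a dimer of Fos, Jun and related proteins that reads TGACTCA or, on the other strand, TGAGTCA, and it is known for opening enhancers in adherent, growth-factor-driven and mesenchymal cells. TEAD factors read GGAATG and recruit the Hippo effectors YAP and TAZ, RUNX factors read TGTGGT or TGCGGT, and the E-box CAGGTG is the site of the ZEB and SNAI repressors and of some basic helix-loop-helix proteins.

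Sequences of 10 of these regions are printed because they show the motifs that the later results count. The first 5 are from the 10 regions with the highest rank in both non-SMC lines, and the others are the highest ranked regions at genes of the Hippo, RUNX and mesenchymal lists described later. Each run is 150 bases of the forward strand of mm10 (RefSeq, GRCm38), with the summit of the stronger peak at base 76. Matches to AP-1, TEAD and RUNX on either strand are in capitals, and regions are named by the gene with the nearest TSS.
*Samd4* region, chr14:46989727-46989876: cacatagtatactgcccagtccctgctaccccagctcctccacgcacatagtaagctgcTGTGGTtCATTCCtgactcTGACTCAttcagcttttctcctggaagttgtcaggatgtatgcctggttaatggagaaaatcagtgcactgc
*Rag2* region, chr2:101490335-101490484: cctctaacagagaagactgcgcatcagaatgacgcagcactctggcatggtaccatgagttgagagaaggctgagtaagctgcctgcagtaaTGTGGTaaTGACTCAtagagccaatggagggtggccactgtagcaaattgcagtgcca
*Heatr5a* region, chr12:51947514-51947663: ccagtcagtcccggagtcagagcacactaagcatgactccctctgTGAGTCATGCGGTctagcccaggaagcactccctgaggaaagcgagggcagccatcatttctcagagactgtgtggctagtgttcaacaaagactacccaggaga
*Esrrg* region, chr1:187910883-187911032: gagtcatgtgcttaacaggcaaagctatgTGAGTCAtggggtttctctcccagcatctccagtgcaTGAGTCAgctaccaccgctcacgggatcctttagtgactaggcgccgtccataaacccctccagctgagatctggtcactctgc
*Slc17a6* region, chr7:51724122-51724271: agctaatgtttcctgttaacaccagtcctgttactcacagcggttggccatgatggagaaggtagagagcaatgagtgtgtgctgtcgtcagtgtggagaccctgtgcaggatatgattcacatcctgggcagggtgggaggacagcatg
*Wwtr1* region, chr3:57510375-57510524: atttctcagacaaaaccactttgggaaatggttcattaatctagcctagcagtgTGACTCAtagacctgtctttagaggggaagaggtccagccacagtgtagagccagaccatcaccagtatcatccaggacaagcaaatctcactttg
*Tead1* region, chr7:112697145-112697294: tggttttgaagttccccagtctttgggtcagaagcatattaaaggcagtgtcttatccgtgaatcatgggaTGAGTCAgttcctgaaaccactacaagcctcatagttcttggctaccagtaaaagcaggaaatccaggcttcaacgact
*Runx1* region, chr16:92930213-92930362: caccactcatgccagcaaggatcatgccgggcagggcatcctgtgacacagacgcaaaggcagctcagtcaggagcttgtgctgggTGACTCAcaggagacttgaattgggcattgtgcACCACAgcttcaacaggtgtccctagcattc
*Tgfbr2* region, chr9:116152940-116153089: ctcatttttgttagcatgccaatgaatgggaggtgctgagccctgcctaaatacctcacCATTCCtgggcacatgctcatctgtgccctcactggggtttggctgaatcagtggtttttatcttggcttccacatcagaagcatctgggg
*Col3a1* region, chr1:45031564-45031713: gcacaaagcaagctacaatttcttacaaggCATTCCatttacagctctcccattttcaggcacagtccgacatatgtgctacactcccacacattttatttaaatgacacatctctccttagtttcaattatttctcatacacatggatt
The *Samd4* region held all 3 motifs within a stretch of the summit window, the *Rag2* and *Heatr5a* regions an AP-1 match beside a RUNX match, and the *Esrrg* region a pair of AP-1 matches in the printed bases. The *Slc17a6* region held none of them. At the *Tgfbr2* and *Col3a1* regions the only match was to TEAD.

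A peak in both lists was required, and most of the regions ranked above the middle of each list. So did most dense regions, sites shared by all 4 libraries and, in the SMC lists, scattered SMC-only regions. Ranks of all distal regions, most of them peaks of a single library, are not given. Fold enrichment, the ratio of reads at the summit to the local background that the authors deposited, had a median of 6.22 (2.04 to 25.4) in line 1 and of 4.88 (2.16 to 25.2) in line 2. These ratios depend on the depth of their library, so ranks within a list were used instead. The median rank was the 74.98th percentile in line 1 and the 76.6th in line 2, and 20.3% and 16.9% of the regions were in the lower part, below the 50th. Dense regions had medians of 75.8 and 78.8, sites shared by all 4 libraries 77.5 and 80.9, and scattered SMC-only regions 72.3 and 82.1 in the SMC lists. The summits stood on a median of 18 reads in line 1 and 8 in line 2, with 5 and 3 as the lowest. A -log10 q of at least 5 was reached by 66.9% of the regions in line 1 and by 42.8% in line 2. Both lines reached it at 7216 regions (37.2%), and neither at 5342 (27.5%). Ranks in the 2 lines had a Spearman correlation of 0.59 over the 19397 regions, a description over regions that share 2 libraries. In 2736 regions the rank was above the 90th percentile in both lines, and in 1588 it was below the 50th in both. Summits of the lines lay a median of 42 bp apart and within 50 bp in 56.99% of regions. Merging joins peaks that overlap, which by itself keeps summits near, so this distance is a description only. One peak per line was found in 97.2%.

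**Figure D1:**
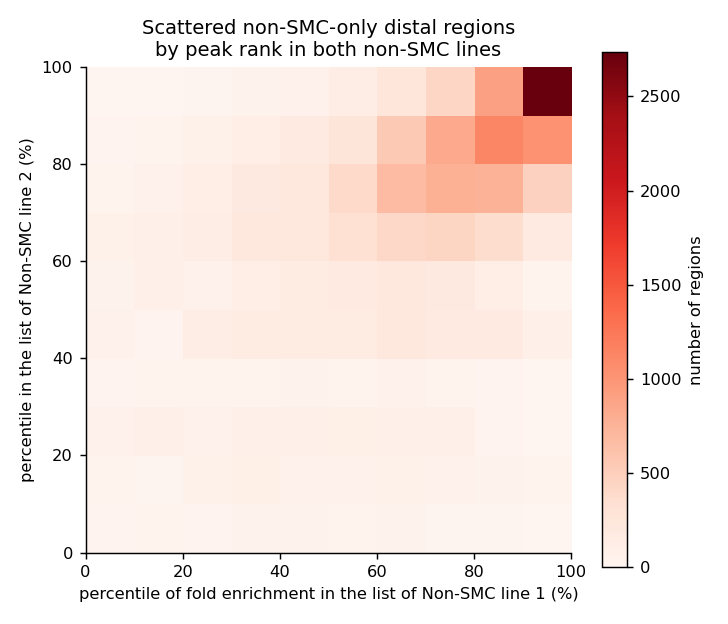
Number of scattered non-SMC-only distal regions by the percentile of their fold enrichment in the peak list of non-SMC line 1 (x axis, percent) and of line 2 (y axis, percent), in squares of 10 percentiles. The fullest square, with 2736 regions, is the one above the 90th percentile in both lines.

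The regions had a median width of 436 bp, against 368 bp in scattered SMC-only regions and 692 bp at distal sites shared by all 4 libraries. Merging of overlapping peaks widens a region by itself, and the median of 186 bp over all distal regions is that of a set made up mostly of peaks of a single library. Their place in the genome was close to that of all distal regions. The median distance to the nearest TSS was 46.9 kb, with the middle of the distribution between 17.8 and 127 kb, and 47.1 kb over all distal regions. It was 75.9 kb, with introns at 36.7%, when non-SMC line 1 was left out. Introns of protein-coding genes held 46.4% of the midpoints (45.5% over all distal regions), lncRNA genes outside protein-coding genes 6.88% (6.32%), and other sequence outside protein-coding genes 43.1% (42.5%). Coding exons held 1.12%, against 2.75% over all distal regions and 2.63% of scattered SMC-only regions, and UTRs held 1.44%. The bases around the summits were repeat-masked to 11.9% on average, below the 17.5% of all distal regions. The like sets were lower still, with 9.94% in dense, 10.3% in scattered SMC-only and 7.12% in regions shared by all 4 libraries. The median GC content here was 46.8%, against 48.3% over all distal, 48.3% in dense and 48.8% in scattered SMC-only regions. Sites shared by all 4 libraries, in contrast, lay at 29.2 kb and had a GC content of 54.2% and 6.62 CpG per window, against 2.17 here. Most regions were more than 500 bp from any SMC peak, and 2127 (10.97%) had a peak of either SMC line within that distance. A peak of SMC line 1 lay within 500 bp of 4.40% of them and one of SMC line 2 within 500 bp of 8.04%, and the median gaps were 8.58 and 4.52 kb.

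AP-1 was the leading motif. Within 100 bp of the summit, TGACTCA or TGAGTCA occurred in 9426 of the 19397 regions, 48.6% (95% Wilson interval 47.9 to 49.3). The share was 11.8% over all distal regions, 20.9% at distal sites shared by all 4 libraries and 4.52% (4.18 to 4.88) in scattered SMC-only regions. It was thus 4.13 times that of all distal regions and 10.8 times that of scattered SMC-only ones. All distal regions are mostly peaks of a single library, and the part of peak rank in their motif shares was not tested. Of the regions with a match, 7997 had 1, 1327 had 2 and 102 had 3 or more, whereas 11 scattered SMC-only regions had 2 and 0 of 13499 had more. Dense non-SMC-only regions had a share of 45.6% (44.2 to 47.0), 3.01 percentage points below that of the scattered ones. The range over chromosomes was 41.0% (chromosome 15) to 55.0% (chromosome 14), against 10.6% to 13.1% for all distal regions, and the 2 ranges did not overlap. Intervals cover counting error only, and regions of the same libraries are not replicates of a cell type. The share rests on the requirement of both non-SMC lines. When non-SMC line 1 was left out it was 19.1% of 28705 regions, and when line 2 was left out it was 29.0% of 25589.

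RUNX and TEAD motifs came next, with shares 11.2 and 6.51 percentage points above those of all distal regions. RUNX occurred in 31.9% (31.3 to 32.6), against 20.7% over all distal regions, 15.8% in scattered SMC-only regions and 32.7% in dense non-SMC-only regions. TEAD occurred in 19.4% (18.84 to 19.96), against 12.9%, 9.60% and 20.3% in these sets. Both motifs were thus about as frequent in dense as in scattered non-SMC-only regions. Over chromosomes, RUNX ranged from 28.7% to 34.5% and TEAD from 16.6% to 21.7%, and in both cases every chromosome was above the highest value of all distal regions, 21.3% and 13.7%. At least 1 of the 3 motifs was found in 14371 regions (74.1%), against 38.5% of all distal regions, 27.3% of scattered SMC-only and 73.4% of dense ones. CEBP (TTGCNNAA), the site of inflammatory and differentiation factors, occurred in 11.7%, or 1.42 times the share of all distal regions, and NFI (TTGGCA) in 16.4%, or 1.26 times. The cyclic AMP response element TGACGTCA occurred in 77 regions (0.397%), 1.59 times the share of all distal regions, and STAT (TTCCNGGAA) in 148, 1.28 times. NFkB sites were present in 2.74% and 2.37%, and SRF sites in 0.918% and 0.933%.

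The E-box CAGGTG was the motif with the lowest ratio to all distal regions, 0.380. It occurred in 6.47% (6.13 to 6.83) of the regions, against 17.0% over all distal regions, 15.4% at sites shared by all 4 libraries and 31.3% (30.6 to 32.1) in scattered SMC-only regions. The ratio to SMC-only regions was 0.207. Its range over chromosomes was 3.86% to 8.13%, against 14.7% to 19.1% for all distal regions. In dense non-SMC-only regions the share of CAGGTG was 6.96%, close to that of the scattered ones. Another E-box, CAGATG, a site of NEUROD1, stood at 1.03 times the share of all distal regions and 0.966 times that of SMC-only ones. FOX sites occurred in 5.83%, against 15.6% of SMC-only regions, and SOX sites in 28.3%, at 0.663 times the share of SMC-only regions. Dense non-SMC-only regions had FOX sites in 5.56% and SOX sites in 27.5%. CTCF, the factor at chromatin loop anchors, had a match in 2.26%, near the 2.37% of all distal regions and below the 9.54% of sites shared by all 4 libraries. These E-boxes are forms of CANNTG that differ in their middle bases, the cyclic AMP element differs from AP-1 by an added base, and matches may overlap where strings share letters, as TEAD, ETS and STAT do in GGAA. A match is a string of letters and does not show that a factor was bound.

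**Figure D2:**
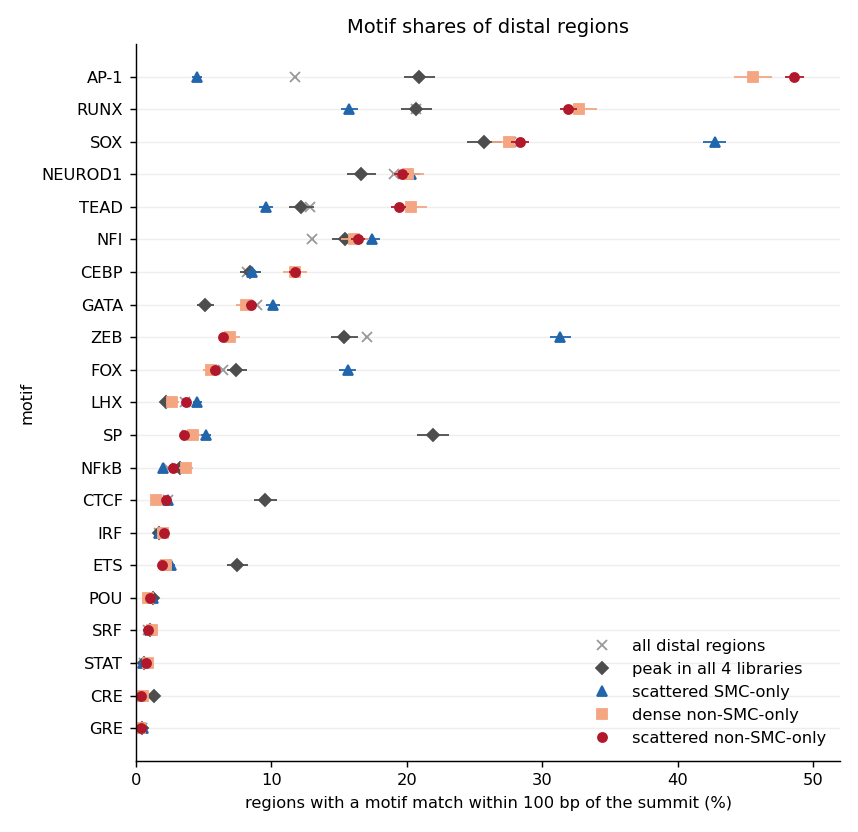
Share of regions with a match to each motif shown within 100 bp of the summit (x axis, percent), with 95% Wilson intervals as lines. Scattered non-SMC-only distal regions (red circles) stand far right of the other sets except the dense ones at AP-1, at 48.6%, and left of SMC-only regions at ZEB (CAGGTG), at 6.47% against 31.3%.

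The AP-1 share was highest where both non-SMC lines, and no SMC line, had a peak. Over all distal regions found in the non-SMC lines alone, scattered or dense, it occurred in 48.0%. Distal regions found in just 1 SMC and 1 non-SMC line had shares of 11.4%, 7.24%, 12.2% and 8.87%, and those of the SMC lines alone 4.43%. Peaks found in 1 library were at 17.6% and 9.72% for non-SMC lines 1 and 2, and 3.38% and 4.03% for SMC lines 1 and 2. Where a region had peaks in both non-SMC lines and in 1 SMC line, the share was 36.3% with SMC line 1 and 36.5% with SMC line 2. CAGGTG ran the other way, with 6.57% in regions of both non-SMC lines, 10.7% and 12.6% when 1 SMC line was added, 15.4% in all 4 and 31.4% in both SMC lines alone. Median width differed among these sets, from 151 bp in regions of SMC line 1 alone to 692 bp in all 4, and its part in the shares was not tested.

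AP-1 matches lay nearer to the summits than TEAD and RUNX matches did. Of 10976 AP-1 matches in the scattered non-SMC-only regions, 41.4% were within 25 bp of the summit, with a median distance of 31 bp. These values were 40.6% and 31 bp in dense regions, 38.7% and 34 bp at sites shared by all 4 libraries, 37.7% and 35 bp over all distal regions, and 32.4% and 43 bp over 621 matches in scattered SMC-only regions. TEAD matches had a median distance of 41.5 bp, against 47.5 bp over all distal and 51.5 bp in SMC-only regions, and RUNX matches 39.5 bp, against 45.5 and 50.5 bp. Within 25 bp were 30.1% of TEAD and 33.0% of RUNX matches, against 26.8% and 28.2% over all distal regions. CTCF matches lay at 40.5 bp and 39.5 bp in these sets. The bases next to AP-1 were uneven in every set. With each match read as TGACTCA, the base before it was T in 6.71% and A, C or G in the rest, and the base after it was A in 9.71%, against 6.82% and 7.62% at sites shared by all 4 libraries, 9.65% and 11.9% over all distal regions and 19.4% and 16.8% in SMC-only regions. The most frequent form with 1 base on each side was ATGACTCAG, with 1218 of 10939 matches (11.1%), followed by GTGACTCAG (11.02%) and GTGACTCAC (10.9%).

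**Figure D3:**
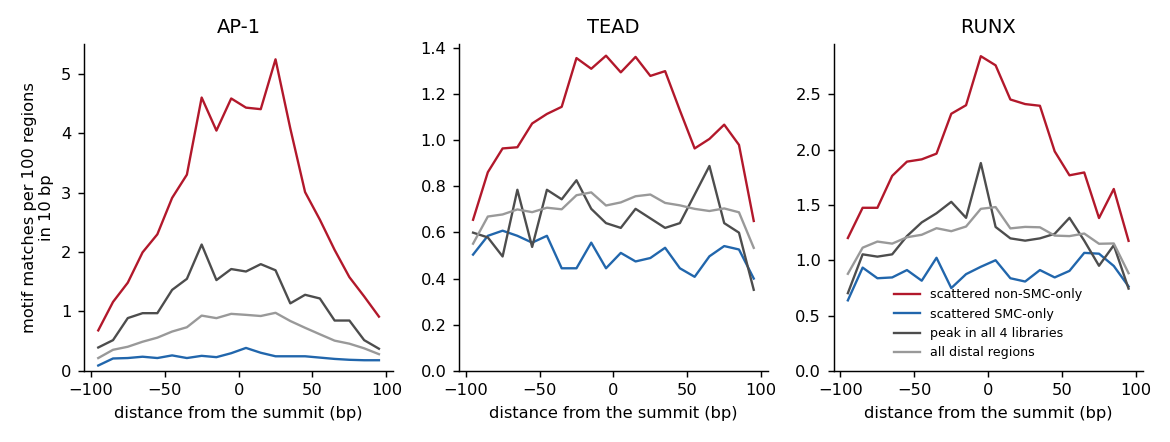
Motif matches per 100 regions in steps of 10 bp (y axis) by distance from the summit in bp (x axis), for AP-1, TEAD and RUNX. In scattered non-SMC-only distal regions (red) all 3 are densest near the summit, while in scattered SMC-only regions (blue) the AP-1 line stays near the bottom.

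Motif content went with peak rank. The regions were put in 10 equal groups by the lower of their percentiles in the 2 non-SMC lines. AP-1 occurred in 24.3% of the weakest group and 68.2% of the strongest, and was higher in each group than in the one below. RUNX went from 26.1% to 38.0% and TEAD from 13.0% to 22.2%, with small steps back on the way. CAGGTG went from 12.1% to 3.56% and CTCF from 3.61% to 0.928%. CEBP was at 10.2% and 10.1% at the ends and SOX at 26.7% and 29.3%. Median width went from 310 to 617 bp along the same groups, and its part in the motif shares was not tested. Regions with AP-1 had median percentiles of 80.7 in line 1 and 82.0 in line 2, and those without it 68.2 and 72.1. With 2 or more AP-1 matches the medians were 87.7 and 87.1.

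**Figure D4:**
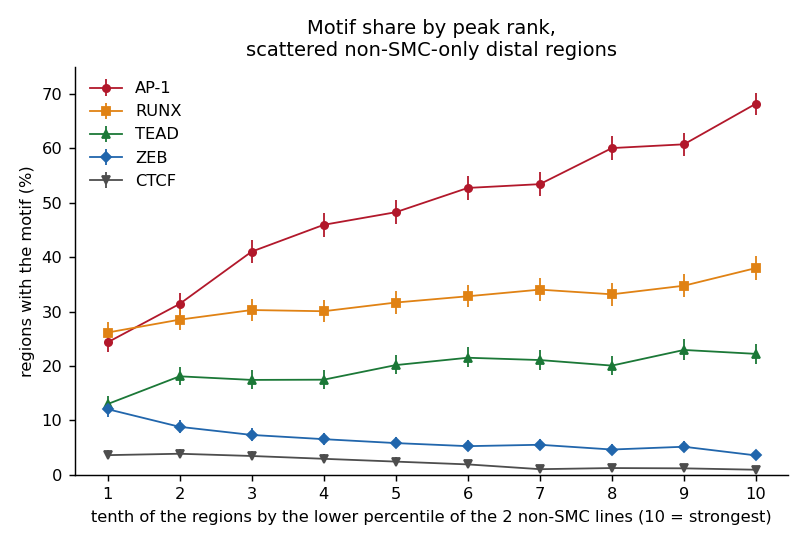
Share of scattered non-SMC-only distal regions with a motif (y axis, percent) in 10 equal groups by the lower percentile of the 2 non-SMC lines (x axis, 10 is strongest), with 95% Wilson intervals. AP-1 goes from 24.3% to 68.2%, while CAGGTG (ZEB) goes from 12.1% to 3.56%.

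TEAD and RUNX were each less frequent beside AP-1 than without it, which was not tested. TEAD was found in 17.0% of the regions with AP-1 and in 21.6% of those without it, and RUNX in 27.7% and 35.9%. Dense non-SMC-only regions had the same order, with TEAD at 16.8% and 23.2% and RUNX at 27.9% and 36.8%. In scattered SMC-only regions TEAD was at 9.84% and 9.59% and RUNX at 14.9% and 15.8%. Over all distal regions both were more frequent beside AP-1, with TEAD at 15.0% and 12.6% and RUNX at 23.3% and 20.3%. All 3 motifs stood together in 425 scattered non-SMC-only regions (2.19%), as in the *Samd4* sequence, and in 2.38% of dense ones. Where AP-1 and TEAD shared a window, 144 of 2016 pairs overlapped and 463 (23.0%) had a gap of 0 to 20 bp, against 21.4% over all distal regions.

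By distance and gene context, AP-1 occurred in 47.7% of regions at 3 to 10 kb from a TSS and in 49.6% of those beyond 300 kb, in 47.9% of intronic regions and in 49.8% of those in other sequence outside protein-coding genes. It was 50.6% in lncRNA genes outside protein-coding genes, 40.5% of 279 regions in UTRs and 34.1% of 217 regions in coding exons. Median percentiles in line 1 were 70.2 at 3 to 10 kb and 78.4 beyond 300 kb.

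The regions were spread over 10639 of 26350 bins (40.4%), and 5228 of them were alone in their bin. The median distance to the nearest other such region was 22.6 kb, and 2390 regions (12.3%) had none within 100 kb. Their density was 7.36 per Mb, from 5.46 (chromosome 14) to 10.7 (chromosome 15) on the autosomes and 2.56 on the X chromosome. As a share of the distal regions of each chromosome they made up 5.30% to 6.89%, with 5.97% on X. At the limit of the rule, the 3496 regions in bins of 4 had AP-1 in 47.6% and median percentiles of 75.8 and 78.9, and the 2210 regions in bins of 5, which were not kept, had 46.1%, 76.8 and 79.1. On the side of the TSS, 189 kept regions at 3 to 3.5 kb had AP-1 in 55.0%, and 247 regions at 2.5 to 3 kb that were not kept had 42.9%. The local read background of the regions, in multiples of the lowest of the library, had a median of 1.27 in line 1 and 1.18 in line 2, and 5 or more was reached at 1.11% and 0.371% of them.

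By nearest TSS, the regions fell to 8049 of 21728 protein-coding genes (37.0%), 3818 of which had 1 region and 143 of which had 10 or more. A nearest gene is a matter of position, and expression was not measured in these files. SMC-only counts at genes, here and in the lists below, are of scattered SMC-only regions and leave out dense ones. *Efnb2*, an ephrin ligand, had the most, with 25 of its 205 distal regions (12.2%) against 10 scattered SMC-only regions. *Myc*, the growth-promoting transcription factor, had 22, and another 25 of its distal regions were in the dense set. *Sox9*, a transcription factor of progenitor and cartilage cells, had 21, and *Fut10*, a fucosyltransferase, had 20 with 0 SMC-only regions. *Inhba*, which encodes the activin A subunit, and *Adgrl3*, an adhesion receptor, had 19 each and again 0 SMC-only regions. *Zeb2*, a repressor of epithelial genes, had 19 against 10 SMC-only regions, *Trps1* 18 against 7, *Zfp608* 18 against 19 and *Adgrl2* 17 against 10. *Camk1g* also had 17. Of the distal regions of each gene, these were 9.91% at *Myc*, 10.2% at *Sox9*, 19.4% at *Fut10*, 20.2% at *Inhba* and 12.8% at *Adgrl3*. They were 12.5% at *Zeb2*, 14.1% at *Trps1*, 8.57% at *Zfp608*, 6.72% at *Adgrl2* and 9.39% at *Camk1g*. The share over all distal regions was 6.03%, and *Adgrl2* was near it. Genes named here had from 94 (*Inhba*) to 253 (*Adgrl2*) distal regions, against a median of 7 over all genes.

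The 10 regions with the highest rank in both lines lay at *Basp1*, *Arrdc3*, *Slc17a6*, *Rpe65*, *Nr2f1*, *Heatr5a*, *Samd4*, *Rag2*, *Esrrg* and *Vegfc*. Their fold enrichment was between 20.4 and 22.3 in line 1 and between 17.3 and 25.2 in line 2, and they were 23.7 to 610 kb from the TSS. The region of *Nr2f1*, a nuclear receptor of development, was farthest. In 9 of the 10 there was at least 1 AP-1 match, and *Slc17a6* was the exception. The *Basp1* region (chr15:25494581-25495195), 81.1 kb upstream, had fold enrichments of 22.3 and 20.01, and its nearest SMC peak was 2.06 kb away. The *Vegfc* region (chr8:54216083-54216740), 139 kb from the start of this lymphatic growth factor gene, had 20.5 and 17.3 and a pair of AP-1 matches. The *Esrrg* region, which had 3 AP-1 matches in its window, had a peak of SMC line 1 as close as 0.175 kb.

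Genes of the Hippo pathway and known targets of YAP and TAZ were nearest to 107 regions, which were 0.552% of the scattered non-SMC-only regions, against 0.400% of all distal, 0.274% of scattered SMC-only and 1.51% of dense non-SMC-only regions. Of 33 genes, 26 had at least 1 (78.8%, against 37.0% of all protein-coding genes). More of them than of SMC-only regions were found at 18 genes (54.5%) and fewer at 4 (12.1%), against 26.6% and 15.3% of all genes. Genes of this list had a median of 27 distal regions of any kind and all genes 7, and there were more scattered non-SMC-only than SMC-only regions in all, so these shares are read with both in view. Among the factors, *Wwtr1*, which encodes TAZ, had 4 regions, all in its introns, and 0 scattered SMC-only ones. Their fold enrichments in lines 1 and 2 were 10.7 and 6.90 at 65.5 kb from the TSS, 5.11 and 3.34 at 63.6 kb, 5.04 and 3.51 at 32.7 kb and 9.99 and 5.26 at 20.1 kb. In the same order, their -log10 q in line 2 was 7.44, 1.33, 1.56 and 4.76. The region at 65.5 kb lay 8.57 kb from the nearest SMC peak. An AP-1 match was present in 3 of the 4 and a TEAD match in none. *Tead1* had 9 regions and *Tead4* 4, and *Yap1* and *Tead2* had 0. The best *Tead1* region (chr7:112696764-112697546) was intronic, with fold enrichments of 11.7 and 8.34. A peak of SMC line 2 was as close as 0.161 kb to it. Among the targets, *Rbms3* had 14, *Igfbp3*, which binds insulin-like growth factors, had 12, and *Myof* and *Nt5e* had 7 each. *Areg*, an EGFR ligand, had 6 with 0 SMC-only. Its best region was 17.4 kb downstream, with fold enrichments of 11.3 and 7.17.

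Mesenchymal and matrix genes were nearest to 121 regions (0.624%, against 0.497% of all distal, 0.319% of SMC-only and 2.66% of dense non-SMC-only regions). Of 42 genes, with a median of 27 distal regions (7 over all genes), 26 had at least 1 (61.9%, against 37.0% of all protein-coding genes). At 22 (52.4%) there were more of these than of scattered SMC-only regions and at 3 (7.14%) fewer, against 26.6% and 15.3% of all genes. These shares too are read with the totals in view, 19397 scattered non-SMC-only and 13499 scattered SMC-only regions. *Zeb2* had 19 and *Zeb1* 10, *Twist2* had 9, *Fn1* (fibronectin) 8, and *Col3a1* and *Tgfbr2*, the collagen and the TGF-beta receptor, 7 each. The *Tgfbr2* region (chr9:116152705-116153644) was in an intron, 22.2 kb from the TSS, at the 99.52nd and 98.96th percentiles. *Cd44* had 0 scattered regions, since its 12 non-SMC-only distal regions were all dense.

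Cytokine and innate immune genes were nearest to 45 regions (0.232%, against 0.197% of all distal, 0.156% of SMC-only and 1.22% of dense regions), with 15 of 28 genes represented. *Cxcl12* and *Nfkb1* had 6 each, *Osmr*, the oncostatin M receptor, 5 and *Il33* 4. The best *Osmr* region was intronic, at the 99.6th and 99.7th percentiles, with an AP-1 and a RUNX match. The AP-1 family itself had 25 regions at 9 of 14 genes, 12 of them at *Bach2* and 3 at *Fosl2*, and the RUNX family 15 at 4 of 4 genes, 8 of them at *Runx1*. These shares, 0.129% and 0.0773%, stood beside 0.107% and 0.0852% over all distal regions. They were 0.119% and 0.0667% of scattered SMC-only and 0.392% and 0.248% of dense regions. The best *Runx1* region had a peak of SMC line 1 as close as 0.028 kb. Growth factor receptor genes had 27 regions at 13 of 20 genes, or 0.139%, with 5 at *Fgfr1* and 4 at *Egfr*. The share was 0.202% of all distal, 0.193% of scattered SMC-only and 0.640% of dense regions. The Notch pathway had 31 at 10 of 17 genes (0.160%, against 0.169%, 0.252% and 0.723% of these sets). *Hes1* had 8 of them, against 9 scattered SMC-only regions. Scattered SMC-only regions were the more numerous at 6 Notch genes and the fewer at 4, and at 6 and 7 receptor genes. Of all protein-coding genes, 37.0% had at least 1 region, and their median was 7 distal regions of any kind. The medians were 17.5 for cytokine, 19.5 for AP-1, 48.5 for RUNX, 26 for receptor and 17 for Notch genes.

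Neuroendocrine genes, which encode factors and secretory proteins of neuroendocrine cells, were nearest to 67 regions (0.345%), close to the 0.367% of all distal regions and below the 0.578% of scattered SMC-only regions. Of 25 genes, 11 had at least 1 (44.0%, against 37.0% of all protein-coding genes), and 0 had dense non-SMC-only regions. Their median was 26 distal regions of any kind, against 7 over all genes. Most of the 67 were at developmental transcription factors: *Sox2* had 15 against 2 SMC-only regions, *Nfib* 10 against 10, *Foxa2* 9 against 9 and *Sox11* 7 against 13. *Ncam1*, whose protein is high in SMC by the sort, had 11 regions with peaks in non-SMC only, against 4 scattered SMC-only regions. The gene had 92 distal regions of any kind. In non-SMC line 2 the -log10 q of the 11 regions went from 0.921 to 14.5. They spread from 136 kb inside the gene to 191 kb upstream of it. The last of these (chr9:49989617-49990487) had fold enrichments of 11.9 and 9.20 and none of the 3 leading motifs. A peak of SMC line 1 was as close as 0.778 kb to it.

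**Figure D5:**
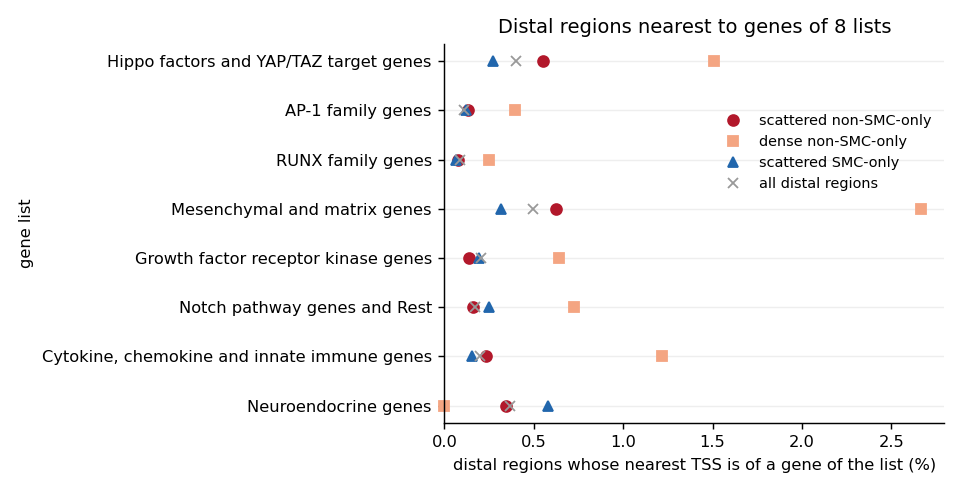
Share of distal regions whose nearest TSS belongs to a gene of each of 8 lists (x axis, percent), for scattered non-SMC-only (red circles), dense non-SMC-only (orange squares), scattered SMC-only (blue triangles) and all distal regions (grey crosses). At the Hippo and mesenchymal lists the scattered non-SMC-only regions (0.552% and 0.624%) stand right of scattered SMC-only and all distal regions. The dense ones stand farther right (1.51% and 2.66%). Scattered non-SMC-only regions stand left of scattered SMC-only ones at the neuroendocrine (0.345% against 0.578%), Notch (0.160% against 0.252%) and growth factor receptor lists (0.139% against 0.193%).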

How the data were processed

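ATAC-seq libraries were made from 2 SMC and 2 non-SMC lines, 1 library per line. The authors mapped paired reads to mm10 with Bowtie2 2.3.4, dropped duplicate reads (sambamba) and ran MACS2 2.1.1 on each library. Settings of the calling are not given in the sources used here. The deposited lists give a fold enrichment (a ratio to the local background), the -log10 p and -log10 q at the summit and a score, which was not used. Lists were not pooled, and fold enrichment was compared as ranks within a list, except that the higher fold decided which summit of a region was used.

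Peaks were merged at an overlap of 1 base and matched to GENCODE M21 genes, whose 5′ ends served as TSS. For each peak, fold and p together gave back the pileup and its background, leaving 3 to 5 peaks per library unresolved. Motifs were searched as letter strings on both strands in 201 bases around the summit with the highest fold enrichment, in RefSeq GRCm38 sequence. The sets compared were dense non-SMC-only, scattered SMC-only, distal in all 4 libraries, and all distal regions. No test was made, since the peak calls of all 4 libraries chose the regions. Shares have Wilson intervals, which cover counting error only. The regions, the gene lists and the motifs were chosen with earlier results of these data known, so no list or motif is independent evidence. Genes named are the 10 with the most regions, those of the 10 regions with the highest lower percentile, up to 6 per list with the most regions, and *Wwtr1*, *Yap1*, *Cd44*, *Ncam1* and *Tead2*. *Chga* (a marker), *Camk1g* (a tie) and *Tead4* were named after their values were seen. The settings varied were the -log10 q (at least 5), equal numbers of top peaks, other overlaps, merging, TSS, bins and windows, autosomes only and each library left out. Merging, motif counting and recovery were tested on simulated data. Python 3.11.15, numpy 2.4.6, pandas 2.3.3, scipy 1.17.1, matplotlib 3.10.9 and bedtools 2.31.1 were used.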

Additional observations from a re-analysis of the deposited data

How the results depend on the processing

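No paired analysis was possible because the values come from no test between groups. With a -log10 q of at least 5 in every list, the number of regions was 11169, the AP-1, TEAD and RUNX shares were 57.7%, 20.6% and 33.4% and the median distance to a TSS was 45.3 kb. With that limit on the non-SMC lists alone, these were 9008 regions, 59.4%, 21.4%, 34.4% and 49.9 kb. Equal numbers of top peaks (91046 per list) moved AP-1 to 51.4% and TEAD to 20.01%. AP-1 was 51.3% with a reciprocal overlap of 50% and 47.1% with peaks merged within 200 bp. A limit of 2 regions per bin left 11104 regions, with AP-1 at 49.4% and introns at 44.6%. The TSS of every transcript gave 29.5 kb and introns at 44.0%. Windows of 50 bp on each side gave 36.0%, 11.4% and 20.2% for AP-1, TEAD and RUNX, which were 4.59, 1.68 and 1.75 times the shares of all distal regions, and windows of 250 bp gave 55.4%, 34.3% and 49.4%, or 3.20, 1.24 and 1.22 times. Summits of non-SMC line 2 gave 46.7%, 18.7% and 30.9%.

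When each library was left out in turn, the number ranged from 20045 to 28705, AP-1 from 19.1% to 47.7%, TEAD from 14.5% to 19.1%, RUNX from 21.7% to 31.7%, introns from 36.7% to 46.8% and the median distance from 45.2 to 75.9 kb. Leaving out non-SMC line 1 gave the lowest AP-1, TEAD and RUNX shares and the longest distance, and leaving out non-SMC line 2 gave AP-1 at 29.0%. In all, 54 of 96 recomputed values stayed within the counting interval or, for numbers of regions, within 1.5 times. Shifted bins, a limit of 8 and autosomes only moved none of these values. In non-SMC line 2, a shallower list, summits stood on as few as 3 reads, and the effect of depth was not tested.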
